A study of Mus musculus with 8 samples.

Results

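The miR-379 to miR-410 cluster is a row of miRNA hairpins at the Mirg gene on mouse chromosome 12. Its members were chosen by name, as the 5p and 3p mature miRNAs of a fixed list of 38 hairpins, and 72 of the 1073 miRNAs in the small RNA table belonged to it. They came from 36 hairpins with both arms in the table, while miR-654 and miR-453 had no entry. Of the 72 members, 67 lay above the expression limit, a log2 CPM (counts scaled to a common library total) over 0, averaged over the 4 small RNA libraries, as did 687 of all 1073 miRNAs.

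Small RNA and poly-A RNA were sequenced from mouse embryonic stem cells (ESC) and from their retinoic acid-differentiated derivatives (RA-DIFF). The wild-type cells were the parental line, and the Htt-null cells carried the targeted ex4/5 null allele of the Huntington's disease gene homologue (Hdh, now Htt) on both chromosomes. ESC were cultured with serum and leukemia inhibitory factor and taken off feeder cells before collection, and RA-DIFF cells were grown as embryoid bodies, given retinoic acid and plated. Each of the 4 conditions had 1 small RNA and 1 RNA-seq library, so every difference below is between libraries, without a replicate check or a test of the conditions, and a clone or culture effect cannot be told apart from genotype. In such bulk samples, fewer cells of a type and less RNA per cell cannot be told apart either.

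Small RNA counts added up to 12888905 in wild-type ESC, 11976744 in Htt-null ESC, and 25656673 and 24290346 in the RA-DIFF libraries labelled wild type and Htt-null. Htt itself, in the RNA-seq libraries, stood at 165.9 CPM in wild-type and 111.3 CPM in Htt-null ESC, but at 73.3 and 98.7 CPM in the RA-DIFF libraries labelled wild type and Htt-null. Its level thus went with the label in ESC and against it in RA-DIFF. In RNA-seq, counts of the RA-DIFF cells labelled Htt-null also matched the column that the study's supplement gives for wild-type cells, and the reverse, whereas ESC matched as labelled. For the small RNA libraries, the numbers of miRNAs called higher and lower at an assumed dispersion of 0.01 were those printed in the study's text for ESC, and the same numbers with the directions exchanged for RA-DIFF. In both assays the RA-DIFF labels thus ran opposite to the study's own use of these data. RA-DIFF libraries are named by their deposited labels throughout, and an exchange of the 2 labels would turn the sign of every RA-DIFF genotype ratio. Marker genes of pluripotent cells fell in RA-DIFF, with 8 of 8 past the fold limit in both genotypes. Of 12 neuron markers, 11 and 10 rose past it in cells labelled wild type and Htt-null, and 0 and 1 (Stmn2, -1.14) fell past it. Over all 15492 genes, 60.2% and 59.2% were past that limit in either direction.

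Genes of the Dlk1-Dio3 domain are imprinted, and its noncoding RNAs, among them Meg3, Rian and Mirg, are expressed from the maternal chromosome. The hairpins of this cluster are found in placental mammals, are processed from long noncoding transcripts and are best known from brain and embryo, where miR-134, for example, restrains dendritic spine growth. A hairpin can yield a mature miRNA from each arm, and the seed, bases 2 to 8 of the mature miRNA, is the main determinant of which mRNAs it pairs with.

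On GRCm38 the hairpins ran along the plus strand of chromosome 12, from Mir379 (109709060 to 109709125) to Mir3072 (109747878 to 109747960). By GENCODE vM21, 23 hairpins, with 46 members, lay outside any annotated gene other than miRNAs on this strand, and 13 lay in Mirg (109729764 to 109749460). Of these 13, 4 fell in a Mirg exon, 4 in an intron and 5 across an exon border.

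Mature sequences of 68 members came from RefSeq for this assembly. The 6 most abundant members, which carried most of the cluster's reads, are shown 5′ to 3′ with the seed in capitals.
miR-410-3p: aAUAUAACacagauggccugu
miR-541-5p: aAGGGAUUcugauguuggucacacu
miR-411-5p: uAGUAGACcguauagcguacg
miR-409-3p: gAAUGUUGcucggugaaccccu
miR-381-3p: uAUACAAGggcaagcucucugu
miR-300-3p: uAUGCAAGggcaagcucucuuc
Each of the 6 had a seed of its own among these 68 sequences, although miR-300-3p and miR-381-3p are alike over most of their length. Members without a sequence could not be compared. The seed of miR-410-3p was shared by miR-344d-3p and miR-344e-3p outside the cluster.

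Among the 68 sequences, 63 seeds were distinct, and 5 seeds were each shared by 2 members. The pairs are shown because members of a pair can be expected to share targets, and because close sequences can share reads.
miR-379-5p: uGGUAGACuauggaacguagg
miR-1193-5p: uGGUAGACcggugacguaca
miR-379-3p: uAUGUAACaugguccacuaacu
miR-411-3p: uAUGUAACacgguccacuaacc
miR-1197-5p: cGGUUGACcaugguguguacg
miR-758-5p: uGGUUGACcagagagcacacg
miR-494-5p: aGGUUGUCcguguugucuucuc
miR-410-5p: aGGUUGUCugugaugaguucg
miR-376c-5p: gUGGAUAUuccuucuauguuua
miR-376b-5p: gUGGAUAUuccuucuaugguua
Counts of miR-379-3p, miR-411-3p, miR-376c-5p and miR-376b-5p are uncertain, since the sequences within each of these pairs were 2 or fewer edits apart and mapping allowed a difference. Across the 5p arms a common start stood out once the sequences were seen. Bases 2 to 4 read GGU, on the strand of the mature miRNA, in 13 of 35 5p members (37.1%) but in 5 of the 348 other 5p miRNAs of the table with a sequence (1.44%). The 3p arms instead had AU at bases 2 and 3 in 9 of 33 members (27.3%), against 6.55% of the 412 other 3p miRNAs. These shares are descriptions, and related hairpins of a cluster are not independent of each other.

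The cluster as a whole supplied 2.18% of the small RNA counts in wild-type ESC, 6.70% in Htt-null ESC, and 1.46% and 0.791% in the RA-DIFF libraries labelled wild type and Htt-null. Their Wilson 95% intervals, which cover counting error only, ran from 2.18 to 2.19, 6.69 to 6.72, 1.46 to 1.47 and 0.788 to 0.795. Htt-null ESC thus had the highest share by a wide margin. In the RA-DIFF libraries, however, miR-10a-5p and miR-10b-5p, which are encoded within Hox gene clusters and induced by retinoic acid, took 79.9% and 83.3% of all counts, against 0.438% and 0.294% in ESC. With both set aside, the cluster made up 2.19%, 6.72%, 7.28% and 4.72% of the remaining counts, in the same order of libraries. The order of the ESC and RA-DIFF libraries therefore depended on whether miR-10 was counted. Levels below are CPM scaled by TMM, a factor per library that makes most miRNAs equal between libraries, and ratios are on the log2 scale.

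Reads were concentrated in few members, and most of the members that share a seed were scarce. The 4 most abundant, miR-410-3p, miR-541-5p, miR-411-5p and miR-409-3p, held between 64.8% and 68.6% of the cluster's counts in every library, and the 10 most abundant between 87.2% and 90.7%. miR-410-3p stood at 3018 CPM in wild-type ESC, 9743 CPM in Htt-null ESC, and 3872 and 3268 CPM in the RA-DIFF libraries labelled wild type and Htt-null. It was the 30th, 8th, 21st and 24th most abundant miRNA of these libraries. miR-541-5p had 3299, 5765, 5259 and 3402 CPM in the same order, so that it led the cluster in all libraries but Htt-null ESC. miR-411-5p (1894, 4420, 3389 and 2067 CPM) and miR-409-3p (1373, 3749, 1771 and 1673 CPM) were highest in Htt-null ESC too. miR-381-3p (862, 2782, 2192 and 2128 CPM) and miR-300-3p (813, 2296, 1563 and 1321 CPM) were lowest in wild-type ESC.

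Next in abundance, miR-134-5p had 392 and 1126 CPM in wild-type and Htt-null ESC, and 293 and 167 CPM in RA-DIFF by label. The level of miR-380-3p was 270.3, 771, 248 and 152 CPM, that of miR-379-5p 242, 705, 85.7 and 44.8 CPM and that of miR-323-3p 137, 481, 193 and 146 CPM. All 4 were highest in Htt-null ESC, and miR-134-5p, miR-380-3p and miR-379-5p were lowest in RA-DIFF cells labelled Htt-null. Of the members with a shared seed, miR-379-3p (72.4, 258, 63.2 and 27.8 CPM) and miR-411-3p (82.4, 246, 82.7 and 35.9 CPM) had like levels, and miR-379-5p exceeded miR-1193-5p (0.447, 1.18, 2.12 and 1.15 CPM) by far. miR-410-5p (6.45, 31.6, 8.16 and 7.50 CPM) was above miR-494-5p (1.54, 1.82, 1.12 and 0.330 CPM), and miR-376b-5p had 2.48, 5.05, 3.47 and 1.65 CPM. At the other end, 5 members lay under the expression limit and get no ratio: miR-1197-5p, miR-758-5p, miR-376c-5p, miR-544-5p and miR-668-5p, with 44 counts at most in a library (miR-758-5p in Htt-null ESC) and 12 at most for the other 4. A count of 0 allows up to 3 counts, which was 0.117 to 0.251 CPM before TMM scaling.

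**Figure D1:**
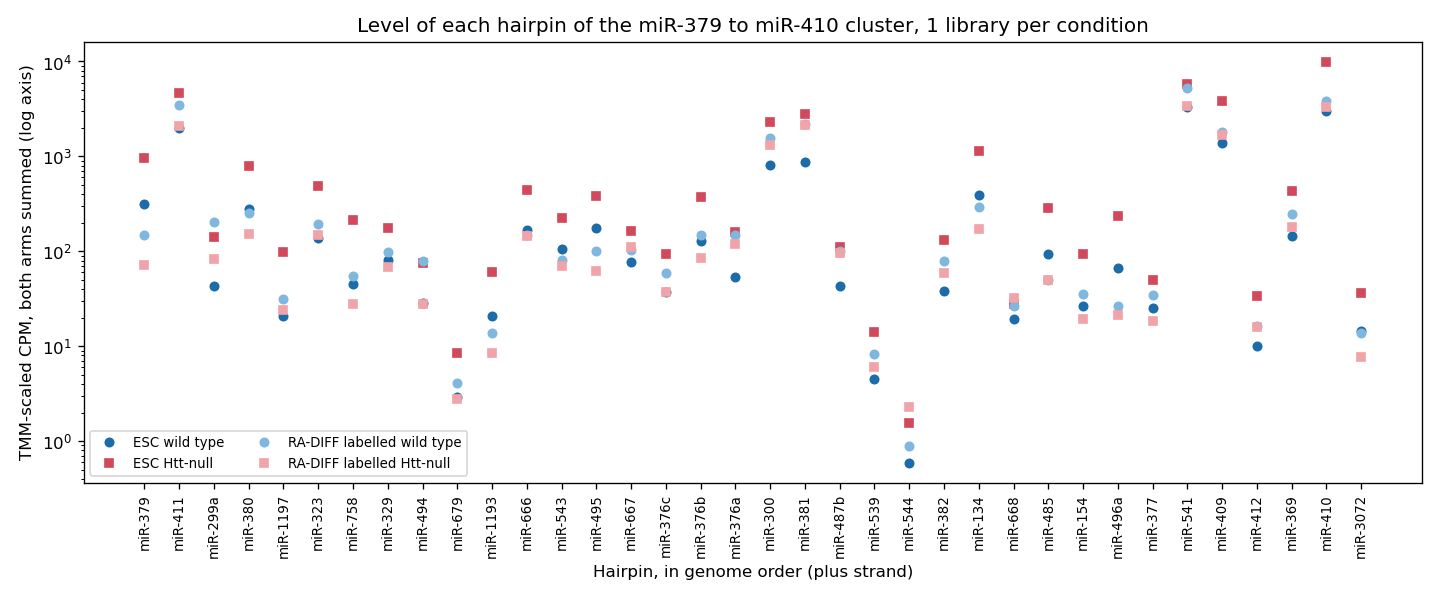
TMM-scaled CPM of each of the 36 hairpins (both arms summed, log axis) in genome order, with 1 point for each of the 4 small RNA libraries. Htt-null ESC is the highest library for 32 of the 36 hairpins, and hairpins next to each other differ by orders of magnitude.

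In the plot of levels by hairpin, Htt-null ESC were highest on the TMM scale for 32 hairpins, the exceptions being miR-299a and miR-494 (RA-DIFF labelled wild type) and miR-544 and miR-668 (RA-DIFF labelled Htt-null). Wild-type ESC were lowest for 19 and RA-DIFF cells labelled Htt-null for 16. Within the row, the abundant hairpins (miR-411, miR-300, miR-381, miR-541, miR-409 and miR-410) were scattered among low ones such as miR-679, miR-539 and miR-544.

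To ask how Htt inactivation bore on the cluster at the pluripotent stage, Htt-null ESC were set against wild-type ESC. The whole cluster was higher in the Htt-null library. All 67 members above the expression limit had a ratio over 0, 62 of them past the fold limit (an absolute log2 ratio over 0.75) and none past it downwards, where 25.2% of all miRNAs tested were past it upwards and 16.3% downwards. An exact test at an assumed dispersion, which compares the libraries and not the conditions, left 60 higher at a dispersion of 0.01 (35.5% of all miRNAs in either direction) and 43 at 0.1 (15.7%), the value the study's methods print. The median log2 ratio of the members was 1.45, which is 2.73-fold, and the middle 50% lay between 1.19 and 1.69. The other 620 miRNAs had a median of -0.10, with 111 higher and 112 lower. All 36 hairpins, arms summed, were also higher, by a log2 ratio of 0.54 to 2.23.

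The 5 members that did not pass the fold limit in ESC were miR-494-5p (31 and 40 counts), miR-487b-5p (27 and 48), miR-382-3p (40 and 69), miR-668-3p (388 and 606) and miR-377-3p (323 and 548). They were picked out after their values were seen. The counting intervals of all 5 lay below the cluster median, and miR-668-3p and miR-377-3p, with the most counts, had log2 ratios of 0.52 and 0.64.

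Among members that reached 100 counts in 1 of the libraries compared, miR-667-5p stood highest, with 31 counts in wild-type and 203 in Htt-null ESC and a log2 ratio of 2.58. It was followed by miR-154-3p (227 and 1220 counts, 2.30), miR-410-5p (130 and 695 counts, 2.29), miR-1197-3p (417 and 2149 counts, 2.24) and miR-758-3p (914 and 4663 counts, 2.23). These 5 are minor products of the cluster. The lowest ratios, after those of miR-668-3p and miR-377-3p, were those of miR-541-5p (0.81), miR-667-3p (1.01) and miR-376b-5p (1.02). miR-541-5p, the most abundant member in wild-type ESC, thus had the lowest ratio of the 10 most abundant, while miR-410-3p, the most abundant in Htt-null ESC, had 1.69. The counting interval of 38 of the 67 ratios excluded the cluster median, so members differed from each other by more than counting error, although how far library preparation varies was not measured.

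Place in the row made little difference in ESC. Members in Mirg had a median of 1.45 (22 of 25 past the fold limit) and those before it 1.50 (40 of 42), while 5p members had 1.39 (29 of 31) and 3p members 1.52 (33 of 36).

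**Figure D2:**
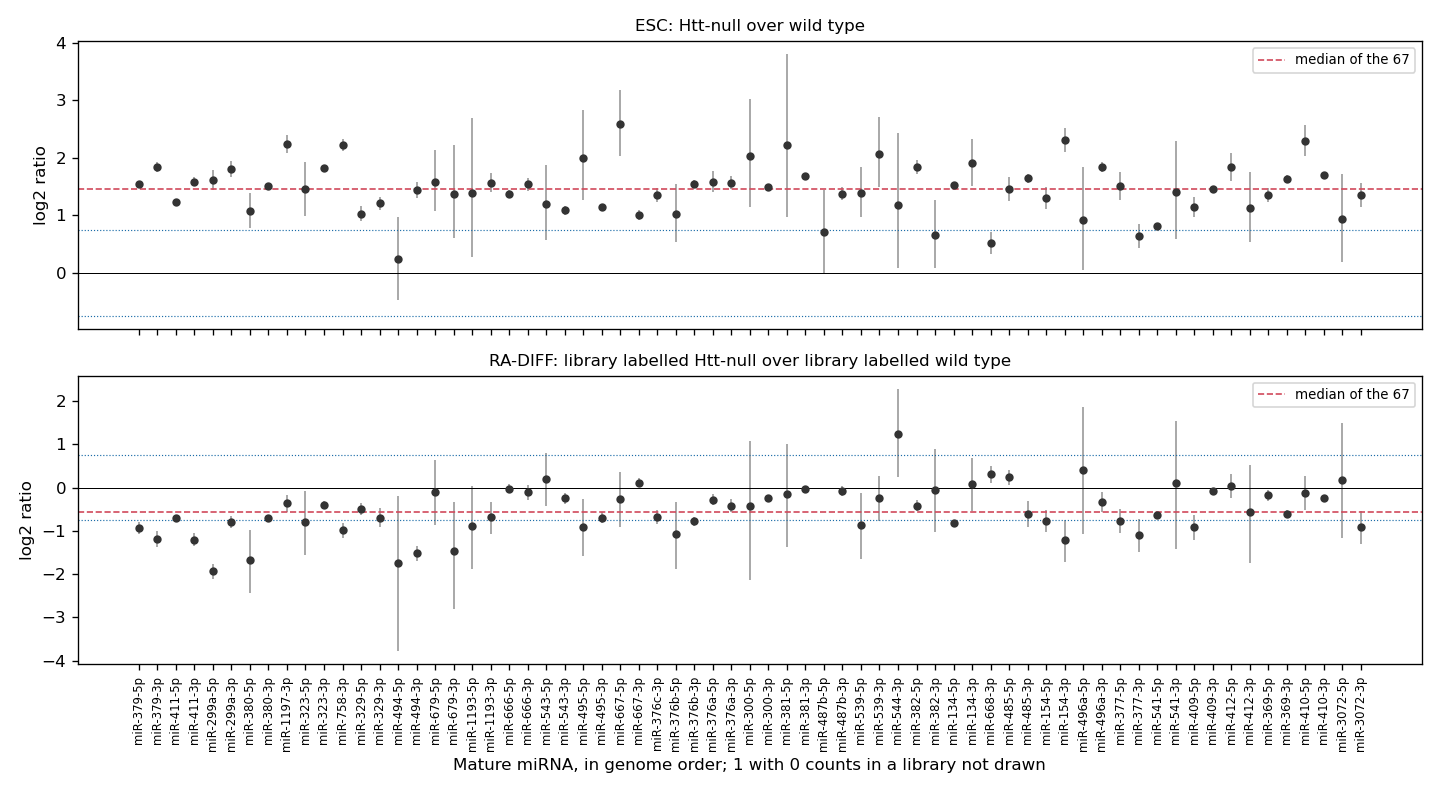
Log2 ratio of the library labelled Htt-null over that labelled wild type for the members above the expression limit, in genome order, in ESC (top) and RA-DIFF (bottom). Points are TMM-scaled ratios with 95% counting intervals, dashed lines the medians (1.45 and -0.56) and dotted lines the fold limits. All ESC points lie above 0 and most RA-DIFF points below it.

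In RA-DIFF the cluster was lower in the library labelled Htt-null than in that labelled wild type. By label, 57 of 67 members had a ratio below 0, with 24 past the fold limit downwards and 1 upwards, against 13.1% and 15.6% of all miRNAs tested (28.7% in either direction). The exact test left 20 lower and 1 higher at a dispersion of 0.01 (22.7% of all miRNAs in either direction), and 3 and 0 at 0.1 (6.55%). By library size alone 42 were lower, against 34.6% of all miRNAs, with a median of -1.04. The median was -0.56, or -0.49 with miR-487b-5p, which had 5 and 0 counts, at its bound. For the other 620 miRNAs the median was 0.01. The one member past the limit upwards, miR-544-3p, had 15 and 24 counts. The plot of genotype ratios along the row shows both the smaller shift and the wider scatter of this comparison.

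Lowest among members with at least 100 counts was miR-299a-5p, with 1925 counts in the library labelled wild type and 342 in that labelled Htt-null and a log2 ratio of -1.93. miR-494-3p (1401 and 332 counts, -1.52), miR-154-3p (161 and 47 counts, -1.21), miR-411-3p (1479 and 436 counts, -1.20) and miR-379-3p (1131 and 337 counts, -1.19) came next. Of these 5, miR-379-3p, miR-411-3p and miR-299a-5p arise from the first 3 hairpins of the row. At the other end were miR-668-3p (468 and 394 counts, 0.31), miR-485-5p (590 and 472 counts, 0.24), miR-667-3p (0.11), miR-412-5p (0.03) and miR-666-5p (-0.03), all within the fold limit. The abundant miR-410-3p, miR-409-3p and miR-381-3p also moved little, with ratios of -0.24, -0.08 and -0.04, whereas miR-411-5p stood at -0.71 and miR-541-5p at -0.63. The median was -0.33 for members in Mirg (7 of 25 past the limit downwards) and -0.69 for those before it (17 of 42), a difference given without a test.

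Of the 62 members higher in Htt-null ESC, 21 were past the limit downwards in RA-DIFF by label, 1 upwards and 40 in neither direction. Downwards this was 33.9%, against 22.5% (39) of the 173 miRNAs of the whole table higher in Htt-null ESC, which include the cluster. Of the 111 other miRNAs among them, 18 (16.2%) were past the limit downwards and 18 upwards. No library is shared by these 2 comparisons. Over the 40 members with at least 100 counts in each library, the ESC and RA-DIFF ratios had a Pearson r of -0.207 and a Spearman rho of -0.148. These members share their libraries and their scaling factors, and the correlation is a description.

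Retinoic acid differentiation was then examined within each labelled genotype. In cells labelled wild type, 23 of 67 members were past the fold limit upwards and 6 downwards from ESC to RA-DIFF, against 34.8% and 32.3% of all miRNAs (67.1% in either direction), and the median was 0.36. In cells labelled Htt-null, 1 was past it upwards and 52 downwards, against 30.9% and 40.5% (71.3% in either direction), with a median of -1.58. At a dispersion of 0.01 the exact test left 23 higher and 6 lower in cells labelled wild type (65.4% of all miRNAs in either direction) and 0 and 51 in cells labelled Htt-null (68.9%). At 0.1 it left 9 and 4 (46.7%) and 0 and 39 (51.4%). The other 620 miRNAs had medians of -0.05 and -0.04. The size of both medians, and the sign of the first, rest on the scaling. By library size alone the median was -0.81 in cells labelled wild type, so that the direction turned, and -3.45 in cells labelled Htt-null. This change of scaling moves each miRNA by the same amount, -1.17 and -1.88 on the log2 scale, and the median over all miRNAs went from 0.03 to -1.12 and from -0.21 to -2.09. With the RA-DIFF labels exchanged, the TMM medians were 0.01 and -1.10.

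**Figure D3:**
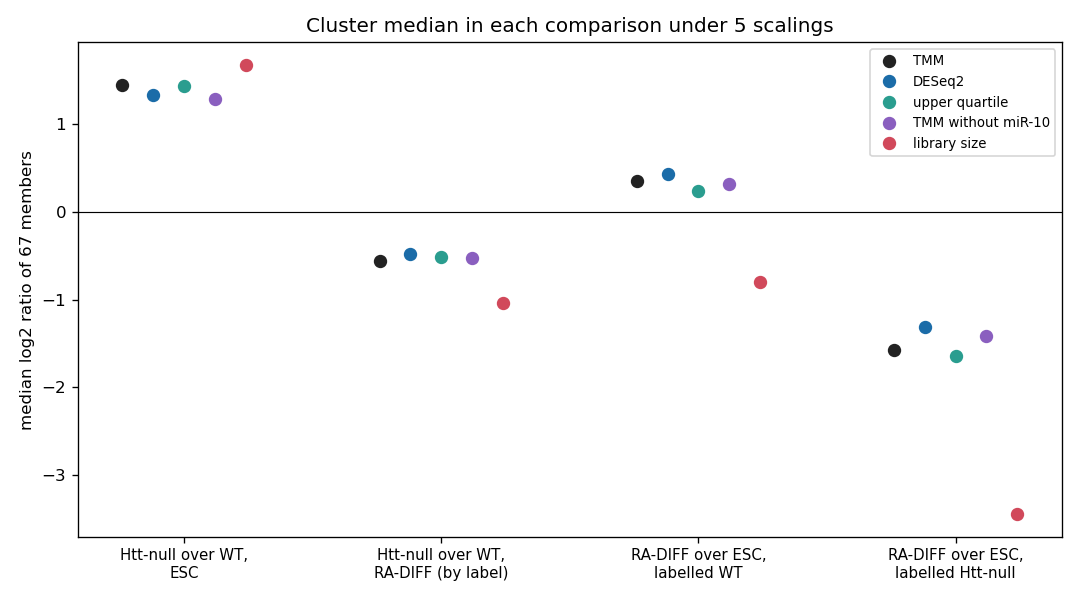
Median log2 ratio of the members in each of the 4 comparisons under 5 scalings of the libraries. The medians of both genotype comparisons keep their sign, while the RA-DIFF over ESC median of cells labelled wild type is 0.24 to 0.44 under 4 scalings and -0.81 by library size alone.

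As the plot of medians by scaling shows, the genotype comparisons kept their direction under all 5 scalings.

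What does not depend on the scaling is how members moved relative to each other. In cells labelled wild type the spread was wide. miR-299a-5p, with 339 counts in ESC and 1925 in RA-DIFF, had a log2 ratio of 2.68. miR-376a-5p followed at 2.31 (338 and 1490 counts), then miR-299a-3p at 1.85 (531 and 1695 counts), miR-494-3p at 1.53 and miR-485-5p at 1.44. Lowest were miR-485-3p at -2.28 (1650 and 301 counts), miR-379-5p at -1.50 (4870 and 1533 counts), miR-496a-3p at -1.35 (1328 and 461 counts), miR-495-3p at -0.85 (3510 and 1725 counts) and miR-1193-3p at -0.79 (408 and 209 counts). Members of 1 row of hairpins thus differed from each other by more than counting error, as 47 of the 67 counting intervals excluded the cluster median. How far library preparation varies was not measured.

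A similar ranking was seen in cells labelled Htt-null. There miR-376a-5p (1103 and 833 counts) had a ratio of 0.45, miR-668-3p 0.24, miR-485-5p 0.23, miR-487b-3p -0.18 and miR-381-3p -0.39. miR-485-3p was again lowest at -4.53 (5605 and 134 counts), followed by miR-379-5p at -3.98 (15494 and 543 counts), miR-154-3p at -3.84 (1220 and 47 counts), miR-496a-3p at -3.51 (5153 and 249 counts) and miR-379-3p at -3.22 (5676 and 337 counts). Over the 40 members with at least 100 counts in each library, the ratios of the 2 genotypes, which share no library, had a Pearson r of 0.829 and a Spearman rho of 0.824. The lower ratio of all 40 in cells labelled Htt-null restates the genotype comparisons, since the difference between these ratios equals that between the RA-DIFF and ESC genotype ratios. The correlation is across miRNAs, which share libraries and base composition and are not independent replicates.

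**Figure D4:**
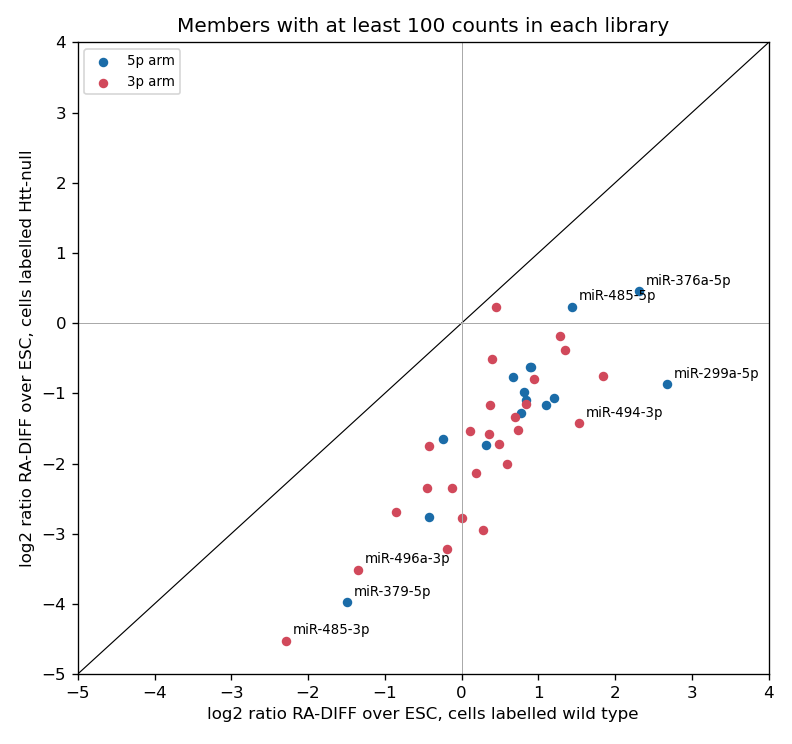
Log2 ratio of RA-DIFF over ESC for the 40 members with at least 100 counts in each library, in cells labelled wild type (x axis) and labelled Htt-null (y axis), coloured by arm. All points lie under the line of equal ratios, and miR-485 has its 5p arm near the top and its 3p arm at the bottom.

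Arms of 1 hairpin did not always move together, as miR-485 in the plot of retinoic acid responses shows. The share of 5p reads among the reads of both arms is a measure within a library that no scaling can alter. It was computed for the 35 hairpins with at least 20 reads in every library. In 21 hairpins 1 arm held over 90% of the reads in all 4 libraries, and the share ranged over a median of 3.57 percentage points between libraries, against 4.71 for the 231 other arm pairs of the table. The major arm was 5p in 8 hairpins in all libraries and 3p in 20.

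In 7 hairpins the major arm changed between libraries. miR-485 changed most. Its 5p share was 12.9% in wild-type ESC (exact 95% interval 11.5 to 14.5) and 11.5% in Htt-null ESC (10.8 to 12.3), but 66.2% (63.0 to 69.3) and 77.9% (74.4 to 81.1) in the RA-DIFF libraries labelled wild type and Htt-null. The ESC and RA-DIFF values were far apart whichever way the RA-DIFF labels are read. In TMM-scaled CPM, miR-485-5p stood at 12.2 and 33.2 in wild-type and Htt-null ESC and at 33.0 and 38.9 in RA-DIFF by label, and miR-485-3p at 81.9, 255, 16.8 and 11.0. The 3p arm therefore accounted for most of the difference between stages on this scale.

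The arms of these hairpins are shown where RefSeq has them.
miR-485-3p: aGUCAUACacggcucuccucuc
miR-329-5p: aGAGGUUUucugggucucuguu
miR-329-3p: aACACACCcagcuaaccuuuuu
miR-376a-5p: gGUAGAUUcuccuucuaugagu
miR-376a-3p: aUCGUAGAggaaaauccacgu
miR-539-5p: gGAGAAAUuauccuuggugugu
miR-154-5p: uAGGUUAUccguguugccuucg
miR-154-3p: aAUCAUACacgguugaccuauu
miR-377-5p: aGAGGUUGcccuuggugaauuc
miR-377-3p: aUCACACAaaggcaacuuuugu
miR-299a-5p: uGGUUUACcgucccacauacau
miR-299a-3p: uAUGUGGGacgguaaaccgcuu
In each pair the seeds, in capitals, differ between the arms, so a change of arm changes the seed that is in excess.

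The 5p share of miR-329 was 45.0% and 41.8% in wild-type and Htt-null ESC and 67.4% and 70.4% in RA-DIFF by label, and that of miR-376a was 31.1%, 31.3%, 55.6% and 58.0%. Both hairpins thus gave more 3p reads in ESC and more 5p reads in RA-DIFF. miR-376 hairpins are known substrates of adenosine-to-inosine editing in brain, and edited reads were not examined. miR-539 went the other way, with 68.1%, 57.1%, 39.9% and 30.1%, on 73 to 310 reads a library. These 3 and miR-485 were the 4 hairpins (11.4% of 35) whose major arm differed between the stages in both genotypes, against 9 of the 231 other arm pairs (3.90%). This difference was not tested.

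The other 3 changed within a stage or genotype. miR-154 had a 5p share of 57.6% in wild-type and 40.3% in Htt-null ESC, then 74.4% and 79.8% in RA-DIFF. That of miR-377 was 35.9% and 50.5% in ESC, and 60.1% and 65.3% in RA-DIFF. Their exact intervals did not overlap between the ESC libraries, and the shifts in Htt-null ESC were opposite, towards 3p for miR-154 and towards 5p for miR-377. miR-299a had 39.0%, 36.0%, 53.2% and 34.1%, so that RA-DIFF cells labelled wild type stood apart from the other 3. miR-379, although 5p in all libraries, had 76.9% and 73.2% in ESC and 57.5% and 61.7% in RA-DIFF. Smaller shifts were those of miR-412 (83.3%, 89.1%, 91.7% and 94.4%) and miR-369 (26.6%, 22.9%, 29.0% and 35.6%). The share of miR-679 was 55.4% and 76.5% in the RA-DIFF libraries, but on 74 and 34 reads, and its intervals overlapped. Exact intervals did not overlap for 11 of 35 hairpins between the ESC libraries, 7 between the RA-DIFF libraries, and 16 and 19 between the stages in cells labelled wild type and Htt-null. Among the 231 other arm pairs the shares were much alike, at 28.6%, 20.3%, 51.1% and 48.5%, where the cluster had 31.4% in ESC and 45.7% and 54.3% between the stages. Reads without molecular identifiers are not independent molecules, so these intervals cover counting error only.

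**Figure D5:**
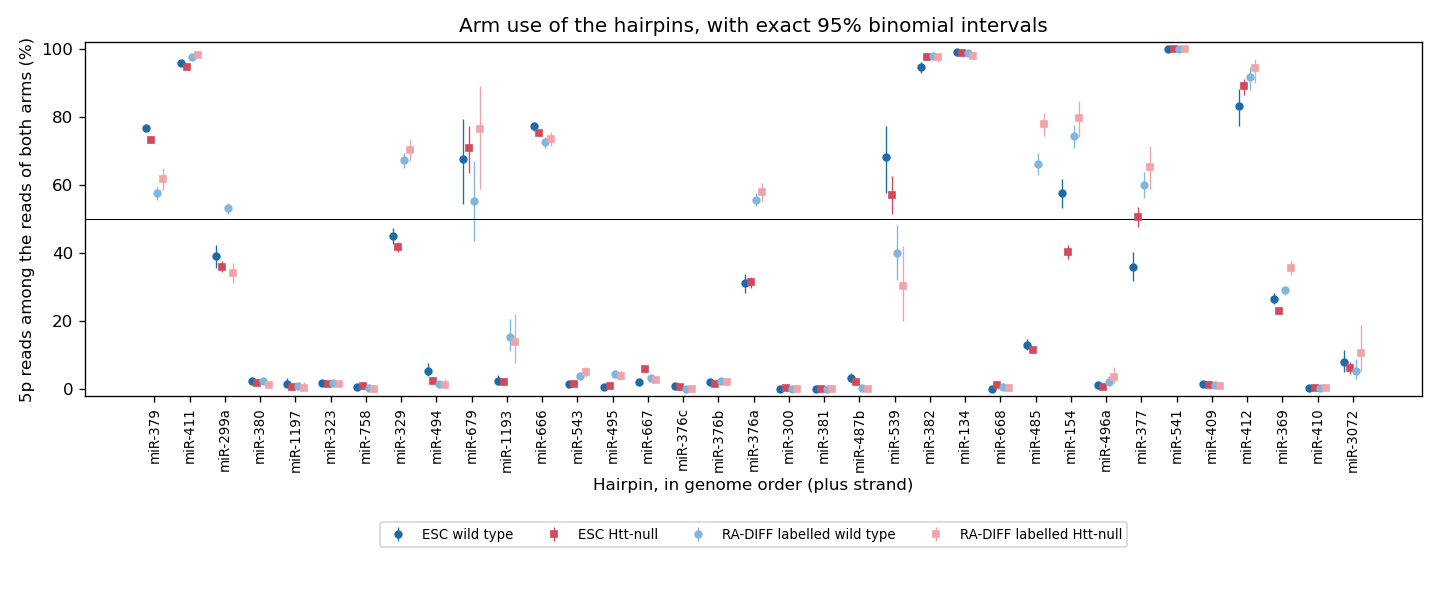
Share of 5p reads among the reads of both arms (%) for 35 hairpins in genome order, with exact 95% binomial intervals, in the 4 small RNA libraries. Most hairpins sit near 0% or 100% in every library, whereas miR-485 moves from 11.5% to 12.9% in ESC to 66.2% to 77.9% in RA-DIFF.

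Read against the rest of its domain, the cluster was not alone, most clearly in ESC. The 30 other Dlk1-Dio3 miRNAs above the expression limit had an ESC median of 1.48, with 25 higher and 2 lower. Of all miRNAs, 25.2% were higher and 16.3% lower. The RA-DIFF median of these 30 by label was -0.31, with 0 higher and 5 lower, against 15.6% and 13.1% of all miRNAs. The lower calls in RA-DIFF thus stood near the share of all miRNAs. From ESC to RA-DIFF the medians were 0.55 (13 higher, 5 lower) under the wild-type label and -1.19 (0 and 20) under the Htt-null label. The shares of all miRNAs higher and lower were 34.8% and 32.3% for the first, and 30.9% and 40.5% for the second. In either direction these were 67.1% and 71.3%. The most abundant of the 30, miR-127-3p, had 23720 and 50740 CPM in wild-type and Htt-null ESC and 12740 and 10080 CPM in RA-DIFF by label. Next came miR-434-3p, with 2005, 5595, 8076 and 7793 CPM, and miR-434-5p, with 650, 1717, 757 and 620 CPM. The 8 members of the miR-302 to miR-367 cluster tested, which mark early pluripotent and primed cells, were shifted the same way in the genotype comparisons, with medians of 1.80 in ESC and -1.16 in RA-DIFF. Those of the miR-290 to miR-295 cluster, the main ESC miRNAs, went the other way (-0.45 and 1.36), as did the let-7 family, which accompanies differentiation (-0.57 and 1.00). The miR-17 to miR-92a cluster had medians of 0.63 and -0.33, and neuron-enriched miRNAs 0.11 and 0.18.

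Long transcripts of the domain were compared in the RNA-seq libraries. Mirg (ENSMUSG00000097391), the noncoding gene that holds 13 of the hairpins, had 817 and 929 counts in wild-type and Htt-null ESC and 1423 and 1739 in RA-DIFF by label. In scaled CPM this was 9.42, 14.2, 12.7 and 17.7, and the genotype log2 ratios by label were 0.60 in ESC and 0.48 in RA-DIFF, neither past the fold limit. Meg3, a maternally expressed noncoding RNA between Dlk1 and Rtl1, had 58.4, 135, 502 and 426 CPM, with ratios of 1.21 and -0.24. Rian, a host of snoRNAs and miRNAs, had 204, 398, 287 and 469.9 CPM, with ratios of 0.97 and 0.71. In ESC these RNAs and the cluster were all higher in the Htt-null library of their own assay. In RA-DIFF, however, the label-based ratios of Mirg and Rian were above 0 and the cluster median below it. An exchange of the RA-DIFF labels in both assays would turn both signs and leave them opposite.

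Among the 3 coding genes of the domain, Dlk1 had log2 ratios of 1.14 in ESC and 0.08 in RA-DIFF, Rtl1 0.58 and 0.11, and Dio3 -0.76 and -1.22. Thus Meg3, Rian and Dlk1 were past the fold limit upwards in ESC and Dio3 downwards, and Dio3 alone was past it in RA-DIFF, against 9.2% and 21.2% of all genes in either direction. From ESC to RA-DIFF, Dlk1, a paternally expressed Notch ligand homologue, had ratios of 5.46 and 4.40 in cells labelled wild type and Htt-null. Meg3 had 3.10 and 1.66, Rtl1 1.40 and 0.93, Rian 0.50 and 0.24 and Mirg 0.43 and 0.31. Dio3, which encodes a thyroid hormone deiodinase, went the other way, at -2.48 and -2.94.

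Markers of other cells moved with the genotype labels, too. In ESC the 16 fibroblast and mesenchyme markers, which also mark feeder cells, added up to 99.9 CPM in the wild-type and 74.4 CPM in the Htt-null library, with 8 of 16 past the fold limit downwards and 1 upwards, against 9.2% of all genes in either direction. The 1 upwards was Lum, with 0 and 1 counts, so that it rests on a single count, and Dcn had 0 counts in the Htt-null library. The sum of the 16 was thus lower under the label under which the cluster, in separate small RNA libraries, was higher. In RA-DIFF the sum was 851 CPM in the library labelled wild type and 3108 CPM in that labelled Htt-null, with 15 of 16 past the limit upwards, and that of the 12 neuron markers was 3033 and 1435 CPM, with 9 past it downwards, against 21.2% of all genes in either direction. The 8 pluripotency markers added up to 267 and 226 CPM, of which Sox2 supplied 213.1 and 212.4 CPM. Past the limit, 6 of the 8 were lower and 0 higher, with a median log2 ratio of -2.75, while Klf4 stood at 0.33. By label, their median and that of the cluster were both below 0, but the RNA-seq and small RNA libraries are separate. In the small RNA libraries the miR-290 to miR-295 cluster had a median of 1.36 by label. The 6 neural progenitor markers added up to 3733 and 5094 CPM, with 3 past the limit downwards and 1 upwards. In ESC the neuron markers added up to 294 and 334 CPM, with 3 higher, and Stmn2 supplied 214.0 and 208.5 CPM of these sums. The 8 pluripotency markers added up to 5599 and 4793 CPM, with 1 lower, and the 6 neural progenitor markers to 105 and 117 CPM, with 2 higher and 1 lower. Of these calls, that of Dcx (higher) rests on 5 and 8 counts and that of Fabp7 (lower) on 4 and 1. No neuron, pluripotency or progenitor marker had 0 counts in any library. The part of cell composition in the RA-DIFF ratios of the cluster was not tested.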

How the data were processed

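The authors trimmed small RNA reads with cutadapt, kept those of miRNA length, mapped them to mature miRNAs of miRBase with BWA and kept unique alignments with few differences; poly-A RNA reads were aligned to GRCm38 with TopHat and counted on GENCODE genes with HTSeq. The submitters' processing notes name cutadapt 1.3, BWA 0.7.5a-r418, SAMtools 0.1.18, TopHat2 2.0.14 and HTSeq 0.6.1. Both deposited tables hold raw counts, and no column was left without a sample. Close paralogues lose reads to the unique-alignment rule, and 1 dominant miRNA lowers the CPM of all others.

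TMM factors over the 4 libraries of an assay and log2 ratios (prior count 0.125) were computed over the whole table with edgeR 4.0.16 in R 4.3.3. With 1 library per condition no dispersion can be estimated, so no test is the main result. A feature was called past the fold limit at an absolute log2 ratio over 0.75 and an average log2 CPM over 0, which are limits of the study's methods. Their p limit of 0.05 from an edgeR test at an assumed dispersion of 0.1 was left out of this rule, because the dispersion was not measured. It is an alternative, as is 0.01, at which the counts of calls over all miRNAs were those the study's text prints (with directions exchanged in RA-DIFF). Ratio and arm intervals are exact binomial and shares of counts have Wilson intervals, all at 95%. On counts simulated for the ESC comparison over 1073 miRNAs, at an assumed dispersion of 0.01, 200 of 200 changed miRNAs were called in the right direction. Of the unchanged ones, 11 of 494 were called. All planted changes were well beyond the fold limit and in miRNAs above the expression limit, so this checks the computation only. It gives no error rate for the real calls, because the real dispersion was not measured. Alternatives were library size alone, TMM without miR-10, upper-quartile and DESeq2 1.42.0 factors, other limits, a prior count of 2, exact tests at assumed dispersions of 0.01 and 0.1, and exchanged RA-DIFF labels.

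Members, marker lists and miRNA lists were chosen with earlier results of these data known. Values are given for the 10 most abundant members, the 5 highest and 5 lowest log2 ratios of each comparison among members reaching 100 counts in a library compared, members that share a seed, the 5 hairpins with the largest change of 5p share in each comparison, the 3 most abundant other miRNAs of the domain, the domain's long transcripts and Htt. Other computation used Python 3.11.15 with pandas 2.3.3, numpy 2.4.6 and scipy 1.17.1, and plots used matplotlib 3.10.9.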

Additional observations from a re-analysis of the deposited data

Results flagged for a closer look

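The genotype ratio of the cluster had opposite signs at the 2 stages. The members' median on the log2 scale, Htt-null relative to wild type, was 1.45 for ESC and -0.56 for RA-DIFF by label, and 57 members had opposite signs in these comparisons. With 1 library per condition the difference was not tested, and an exchange of the RA-DIFF labels would end the difference in sign.

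The response to retinoic acid by label is the same difference in another form, since a member's 2 stage ratios differ by as much as its 2 genotype ratios. The median log2 ratio of RA-DIFF over ESC was 0.36 in cells labelled wild type and -1.58 in cells labelled Htt-null, and 40 members had opposite signs. This difference was not tested either, and the first of the 2 medians was below 0 by library size alone.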

How the results depend on the processing

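No paired analysis was possible because each condition has 1 library. Of the alternative values, 92 kept their direction and stayed near the reported value, 33 moved and 2 reversed. By library size alone the medians were 1.68 in ESC, -1.04 in RA-DIFF by label (42 lower), -0.81 from ESC to RA-DIFF in cells labelled wild type, reversed (4 higher, 36 lower, 53.7%, against 58.8% of all miRNAs lower), and -3.45 in cells labelled Htt-null (0 higher). With exchanged RA-DIFF labels they were 0.56 in RA-DIFF, reversed (24 higher, 1 lower), 0.009 in cells labelled wild type (14 higher, 18 lower, against 35.1% and 35.5% of all miRNAs) and -1.10 in cells labelled Htt-null (2 higher, 39 lower, against 31.9% and 37.3%). DESeq2 factors gave -1.31 in cells labelled Htt-null, where none was higher under upper-quartile factors, a prior count of 2, at least 100 counts, a fold limit of 1, or exact tests at dispersions of 0.01 or 0.1 (0 in each). In RA-DIFF by label 2 members were higher without an expression limit, 0 higher and 15 lower of 45 with at least 100 counts (10.7% of all miRNAs lower), 11 lower at a fold limit of 1 (7.42% of all), and 0 higher and 3 lower at a dispersion of 0.1. In cells labelled wild type 15 were higher and 4 lower at a fold limit of 1 (30.4% and 28.7% of all miRNAs) and 9 at a dispersion of 0.1. Without miR-10a-5p and miR-10b-5p the cluster made up 2.19% and 6.72% of the counts in wild-type and Htt-null ESC, and 7.28% and 4.72% in RA-DIFF. In ESC the count of higher members was 59 to 66 under all alternatives but at least 100 counts (51 of 53 members) and a dispersion of 0.1, which left 43. Depth limits ratios of members with few counts, and 1 library per condition limits all of them.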
